A study of Mus musculus with 7 samples.

Results

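The genes described here are 10 genes used to recognise fat cells in a mixed tissue. Adipoq, Plin1, Car3, Cfd, Retn, Lep, Scd1 and Cidec are called white fat genes here, and Ucp1 and Cidea brown fat genes. The split is a naming used in this text. Whether the reads of the white fat genes came from white fat only was not tested. The genes were found by their Ensembl identifiers, and all 10 are among the 22027 genes listed. RNA had been taken from the left ventricle of C57BL/6J mice aged 12 months. The 3 libraries labelled G3 PGC1aOE came from telomerase-deficient mice in which PGC1alpha, a coactivator of mitochondrial genes, was overexpressed, and the 4 libraries labelled G3 came from telomerase-deficient mice without that label. Both groups therefore share the telomerase deficiency. The labels used here name neither the promoter nor the cells that drive the overexpression, nor whether any animals were pooled or related, so p-values measure only the spread between these samples.

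White adipocytes store triglyceride in a single large droplet and secrete hormones, among them adiponectin and leptin. Brown adipocytes hold many small droplets and burn fat for heat through the uncoupling protein UCP1. Fat lies on the outer surface of the heart, in the grooves between its chambers and around the great vessels, and the myocardium itself uses some of the same lipid-handling genes as fat cells do.

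Total counts ran from 10106705 to 16056740 per library. Checked against its markers, the labelled tissue had Myl2, the ventricular myosin light chain, at 12565 to 36088 FPKM in the libraries labelled G3 PGC1aOE and at 11649 to 21771 FPKM in G3. FPKM are the authors' read counts scaled by gene length and library total. Ppargc1a, the gene of PGC1alpha, stood at 37.7, 13.3 and 16.2 FPKM in G3 PGC1aOE 1 to 3 and at 33.8, 21.0, 38.7 and 26.9 FPKM in G3 1 to 4. Ppargc1a differed by −0.38 on the log2 scale (SE 0.34; edgeR, adjusted p = 0.847), and the groups overlapped. Its message thus does not show the overexpression named by the label, on which each direction below rests. Atrial muscle genes differed widely between libraries of both groups and are given beside the fat genes below.

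The white fat genes were low in these ventricles, differed widely between libraries and overlapped between the groups. Of the 10 genes, 8 had enough counts to be tested, Lep and Ucp1 did not, and none of the 8 passed. Adipoq, Plin1, Car3, Cfd, Retn and Cidec had their 3 highest values in the same 3 libraries, G3 PGC1aOE 3, G3 PGC1aOE 2 and G3 2. Of the brown fat genes, Ucp1 had no read in any library, whereas Cidea was present in all 7, within 1.58-fold. Since bulk tissue was sequenced, fewer fat cells and less RNA per fat cell cannot be told apart.

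Upstream bases of some of these genes are shown because 6 white genes shared their highest libraries. RefSeq entries of build GRCm38.p6 were matched by symbol for 7 genes on 8 starts; Car3 and Scd1 had no entry and no bases of Cidea are shown. The 250 bases before the start were searched on both strands for TTGCNNAA, a C/EBP motif, for AGGTCA, the core of nuclear receptor sites, for the direct repeat of that core with 1 base between, which PPARG binds and which overlaps it, and for TATAAA, the TATA box. Capitals mark each match. Plin1, the second listed start of Cidec and Lep hold TTGCNNAA, Ucp1 holds AGGTCA, and Adipoq holds none of the 4.
Adipoq (chr16:23146286-23146535, plus strand): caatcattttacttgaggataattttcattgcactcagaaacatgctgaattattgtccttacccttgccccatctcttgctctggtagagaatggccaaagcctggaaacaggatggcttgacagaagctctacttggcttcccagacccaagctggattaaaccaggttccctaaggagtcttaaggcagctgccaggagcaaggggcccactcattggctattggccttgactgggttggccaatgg
Plin1 (chr7:79732777-79733026, minus strand): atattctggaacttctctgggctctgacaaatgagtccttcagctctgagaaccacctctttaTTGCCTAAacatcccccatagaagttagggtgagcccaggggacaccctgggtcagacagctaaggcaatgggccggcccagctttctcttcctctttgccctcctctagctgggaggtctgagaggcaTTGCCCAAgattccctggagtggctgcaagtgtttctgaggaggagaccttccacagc
Cidec (chr6:113434765-113435014, minus strand): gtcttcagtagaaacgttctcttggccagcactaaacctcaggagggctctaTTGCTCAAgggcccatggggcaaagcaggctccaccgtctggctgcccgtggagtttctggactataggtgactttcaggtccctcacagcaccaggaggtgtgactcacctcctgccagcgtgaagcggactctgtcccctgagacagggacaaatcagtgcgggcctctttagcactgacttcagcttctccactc
Lep (chr6:29059971-29060220, plus strand): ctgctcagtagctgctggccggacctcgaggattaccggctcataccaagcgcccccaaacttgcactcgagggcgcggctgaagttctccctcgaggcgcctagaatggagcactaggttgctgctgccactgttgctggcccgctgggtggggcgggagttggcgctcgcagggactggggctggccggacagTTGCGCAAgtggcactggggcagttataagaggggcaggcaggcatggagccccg
Ucp1 (chr8:83290098-83290347, plus strand): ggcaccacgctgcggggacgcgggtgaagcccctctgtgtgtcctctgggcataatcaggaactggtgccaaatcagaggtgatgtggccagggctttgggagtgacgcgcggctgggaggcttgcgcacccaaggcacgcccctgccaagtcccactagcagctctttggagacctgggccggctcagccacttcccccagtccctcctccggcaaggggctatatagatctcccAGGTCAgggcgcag
In Plin1 the motif TTGCNNAA began 187 and 58 bases before the start, in Lep 55 and in Cidec 198, and in Ucp1 AGGTCA began 14 bases before it. Among 32851 promoter windows of the same length, TTGCNNAA was found in 9.56%, AGGTCA in 14.0%, the direct repeat in 0.0335% and TATAAA in 12.4%. Of the 8 windows 3 held TTGCNNAA. A match is a description of these letters, and Adipoq, Cfd and Retn, which shared the library pattern of Plin1, held none of the 4 motifs.

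Adipoq (ENSMUSG00000022878) encodes adiponectin, the hormone that most sharply marks fat cells. It had 12, 30 and 55 reads in G3 PGC1aOE 1 to 3 and 4, 41, 4 and 1 reads in G3 1 to 4. Per length this was 1.13, 2.20 and 3.74 FPKM in G3 PGC1aOE 1 to 3, against 0.432, 3.72, 0.389 and 0.0773 FPKM in G3 1 to 4. G3 2 stood level with the highest library labelled G3 PGC1aOE, and the other 3 libraries of G3 lay below all libraries labelled G3 PGC1aOE, so the groups overlapped. edgeR put the difference at 1.28 on the log2 scale (SE 0.92, 95% interval −0.79 to 3.35, adjusted p = 0.847).

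Cfd (ENSMUSG00000061780) encodes adipsin, a complement protease that fat cells release in large amounts. It measured 4.21, 12.4 and 13.8 FPKM in G3 PGC1aOE 1 to 3, against 1.39, 27.1, 0.483 and 0.230 FPKM in G3 1 to 4. The highest and the lowest value of all 7 libraries were both in G3. Cfd differed by 0.76 on the log2 scale (SE 1.38; edgeR, adjusted p = 0.916). Retn (ENSMUSG00000012705) encodes resistin, a fat cell hormone in mice. Its values were 0.772, 1.53 and 3.46 FPKM in G3 PGC1aOE 1 to 3, against 0.786, 1.98, 0.177 and 0.0703 FPKM in G3 1 to 4, which overlap. Retn differed by 1.62 on the log2 scale with an SE of 0.84 (edgeR, adjusted p = 0.847).

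Lep (ENSMUSG00000059201) encodes leptin, the hormone that reports fat stores to the brain. It had 0, 2 and 2 reads in G3 PGC1aOE 1 to 3 and 0 reads in each library of G3. A count of 0 allows up to 3 reads, or 0.222 to 0.274 CPM in the libraries of G3, counting error only, so no difference in Lep was detectable at this depth. The 2 libraries with Lep reads were also among the 3 highest for Adipoq.

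Among the proteins of the lipid droplet, Plin1 (ENSMUSG00000030546) encodes perilipin 1, the coat protein that guards stored triglyceride in fat cells. Its values were 0.137, 0.534 and 1.72 FPKM in G3 PGC1aOE 1 to 3, against 0.0524, 0.529, 0.0944 and 0.188 FPKM in G3 1 to 4. They came from 3, 15 and 52 reads in G3 PGC1aOE 1 to 3, against 1, 12, 2 and 5 reads in G3 1 to 4, so that G3 PGC1aOE 3 alone held 52 of the 90 Plin1 reads. Plin1 differed by 2.09 on the log2 scale (SE 0.87; edgeR, unadjusted p = 0.0363, adjusted p = 0.847). Without G3 PGC1aOE 3 it was 0.74.

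Cidec (ENSMUSG00000030278) encodes a protein that fuses lipid droplets into the single large droplet of white fat cells. It measured 0.754, 2.46 and 4.78 FPKM in G3 PGC1aOE 1 to 3, against 0.173, 2.90, 0 and 0.124 FPKM in G3 1 to 4. G3 2 again lay between the libraries labelled G3 PGC1aOE, while the other libraries of G3 had at most 2 reads each. Cidec differed by 2.00 on the log2 scale with an SE of 1.17 (edgeR, adjusted p = 0.847).

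The enzymes were Car3 and Scd1. Car3 (ENSMUSG00000027559) encodes carbonic anhydrase 3, which is abundant in fat cells and in slow skeletal muscle. It had the highest group difference of the 8 tested genes, with 2.47, 7.12 and 15.2 FPKM in G3 PGC1aOE 1 to 3, against 0.230, 4.12, 0.620 and 0.438 FPKM in G3 1 to 4. G3 2 lay above G3 PGC1aOE 1, so these groups overlapped as well. Car3 differed by 2.87 on the log2 scale (SE 0.97, 95% interval 0.62 to 5.12; edgeR, unadjusted p = 0.0187, adjusted p = 0.847).

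Scd1 (ENSMUSG00000037071) encodes stearoyl-CoA desaturase 1, which makes monounsaturated fatty acids in fat, liver and other tissues. It behaved differently from the hormones, with 5.54, 3.08 and 8.47 FPKM in G3 PGC1aOE 1 to 3, against 6.59, 9.76, 2.29 and 1.52 FPKM in G3 1 to 4. The highest library was 6.41-fold above the lowest, and G3 1, which had little Adipoq, came next after G3 2 and G3 PGC1aOE 3. Scd1 differed by 0.39 on the log2 scale (SE 0.60; edgeR, adjusted p = 0.892). Scd1 lies in a family of close paralogs whose reads the counting may have split.

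**Figure D1:**
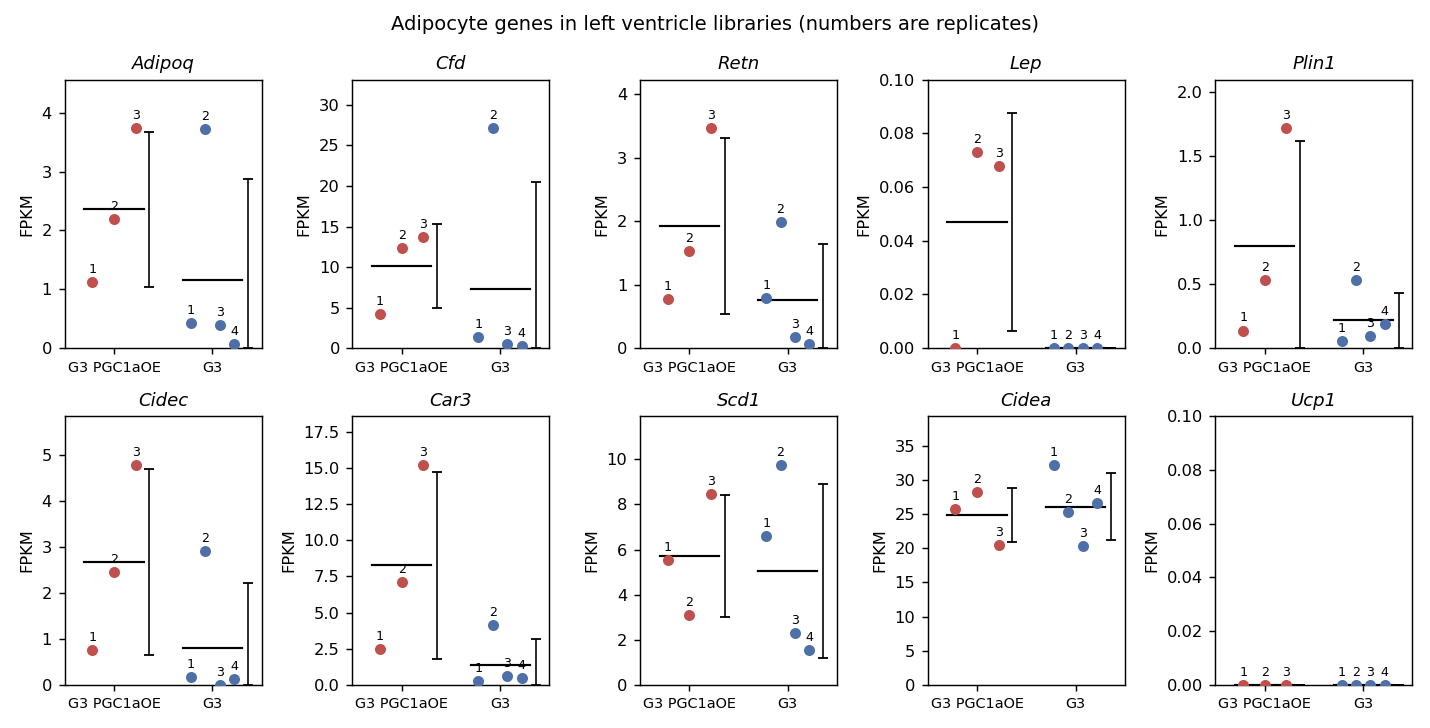
FPKM of the 10 genes in each library (points, numbered by replicate), with a line at the group mean and a bar of 1 SD, cut at 0 (n = 3 in G3 PGC1aOE, n = 4 in G3); each panel has its own axis from 0. Replicate 2 of G3 stands with replicates 2 and 3 of G3 PGC1aOE in the panels of Adipoq, Cfd, Retn, Plin1, Cidec and Car3, Cidea is level, and Ucp1 is at 0 throughout.

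Brown fat genes gave another picture. Ucp1 (ENSMUSG00000031710), the uncoupling protein that defines brown fat, had 0 reads in all 7 libraries, including the 3 with the most white fat reads. A count of 0 allows at most 3 reads, which is 0.218 to 0.233 CPM in the libraries labelled G3 PGC1aOE and 0.222 to 0.274 CPM in G3, counting error only. At this depth a brown fat contribution carrying Ucp1 above that limit was not detected.

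Cidea (ENSMUSG00000024526) encodes a droplet protein of brown fat that is related to the Cidec product. Its level was 25.8, 28.2 and 20.5 FPKM in G3 PGC1aOE 1 to 3, against 32.2, 25.2, 20.4 and 26.6 FPKM in G3 1 to 4. It was the most abundant of the 10 genes in 6 libraries, all but G3 2, where Cfd was higher, and its highest library was 1.58-fold above its lowest, its values overlapping between groups. The groups averaged 24.8 ± 3.94 FPKM (SD, n = 3) in the libraries labelled G3 PGC1aOE and 26.1 ± 4.87 FPKM (SD, n = 4) in G3, and differed by 0.04 on the log2 scale (SE 0.22, 95% interval −0.43 to 0.52; edgeR, adjusted p = 0.966). By FPKM Cidea was highest in G3 1, where Cidec had 2 reads, and next to lowest in G3 PGC1aOE 3, where Cidec had 88. By TMM-scaled CPM the order of these close values differed, with 26.9, 35.6 and 28.2 CPM in G3 PGC1aOE 1 to 3, against 34.6, 26.1, 23.9 and 32.8 CPM in G3 1 to 4. Which cells carried Cidea in these ventricles was not tested.

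The ratio of Cidea to Cidec in FPKM was lowest in the 3 libraries with the most Cidec. It was 34.2, 11.5 and 4.28 in G3 PGC1aOE 1 to 3 and 8.69 in G3 2. In G3 1 and G3 4 it was 187 and 215, from 2 Cidec reads each, and in G3 3 no Cidec read was found. On the scale of log2 FPKM plus 0.05 the ratio averaged 3.53 ± 1.46 (SD, n = 3) in the libraries labelled G3 PGC1aOE and 6.55 ± 2.40 (SD, n = 4) in G3, a difference of −3.02 that did not pass an exact permutation test (2-sided p = 0.114). The smallest p that test can give here is 0.0286. Because Cidea stayed within 1.58-fold over the libraries, the ratio mostly restates Cidec. It is not a separate result on brown against white type. In G3 3, where no Cidec read was found, the log2 ratio depends on the added 0.05.

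The other genes listed as brown fat markers were either nearly unread or present in every library. Which cells carried those present in every library was not tested. Of 11 brown fat genes, Elovl3, a fatty acid elongase, had 1 read over all 7 libraries, Lhx8, a transcription factor of the brown lineage, had 1 read in each of G3 PGC1aOE 2 and G3 2, and Bmp8b, a growth factor of brown fat, had 2 reads in G3 4. Zic1, a marker of classical brown fat, had 10, 2 and 2 reads in G3 PGC1aOE 1 to 3 and 1, 2, 1 and 2 reads in G3 1 to 4. By contrast Kcnk3, a potassium channel gene, stood at 116 ± 46.8 FPKM (SD, n = 3) in the libraries labelled G3 PGC1aOE and 140 ± 25.0 FPKM (SD, n = 4) in G3. P2rx5, a purinergic receptor gene, Acot11, a thioesterase gene, and Cpn2, a carboxypeptidase subunit gene, differed by 0.05, −0.23 and −0.57 on the log2 scale, with SEs of 0.24, 0.34 and 0.49. Prdm16, a regulator of brown fat identity, measured 2.48 ± 0.997 FPKM (SD, n = 3) in the libraries labelled G3 PGC1aOE and 3.07 ± 0.590 FPKM (SD, n = 4) in G3. Of the 6 brown fat genes tested, 0 passed, 2 had positive and 4 negative fold changes, and the list summed to 77.8 to 178 FPKM in the libraries labelled G3 PGC1aOE and 120 to 184 FPKM in G3, mostly Kcnk3.

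Beige fat markers were also sparse. Of 6 genes, 2 were tested, and neither passed; their median log2 fold change was 0.04. Tbx1, a T-box factor gene, measured 0.712 ± 0.431 FPKM (SD, n = 3) in the libraries labelled G3 PGC1aOE and 0.574 ± 0.323 FPKM (SD, n = 4) in G3, and Cited1, a coactivator gene, was below that test's minimum of reads. Tmem26, a surface marker of beige cells, had 0 to 2 reads per library, and Hoxc9, a patterning gene, had 0 reads in each library labelled G3 PGC1aOE and 1 read in each library of G3. Slc27a1, a fatty acid transporter gene that muscle also uses, measured 50.9 ± 15.9 FPKM (SD, n = 3) in the libraries labelled G3 PGC1aOE and 69.8 ± 9.15 FPKM (SD, n = 4) in G3.

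All 8 tested genes had log2 fold changes above 0 in edgeR, with a median of 1.45, where the median over all 12674 tested genes was 0.0076 and 50.9% of them were above 0. Counts of positive fold changes in each gene list are to be set beside that share. Cidea, at 0.04, went below 0 under several settings. An adjusted p under 0.05 was reached by 0 of the 8, beside 0.0% of all tested genes. At an unadjusted p under 0.05, edgeR gave 548 genes, or 4.32%, over all, of which 387 (3.05%) had positive and 161 (1.27%) negative fold changes, and 2 of the 8, Car3 and Plin1, both positive. A log2 fold change above 1 was found for 5 of the 8, beside 2.05% of all tested genes, a share taken over genes of all levels. These 5 had their highest values in the same libraries, so they are not 5 separate observations. DESeq2 called 3 genes over all and limma voom called 0, none of them among the 8. None of the 8 was free of overlap between the groups, beside 2.19% of all tested genes that lay wholly higher in the libraries labelled G3 PGC1aOE. The exact permutation test on log2 CPM gave 2-sided p-values from 0.0857 for Car3 to 0.8 for Cidea over the 8 genes.

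**Figure D2:**
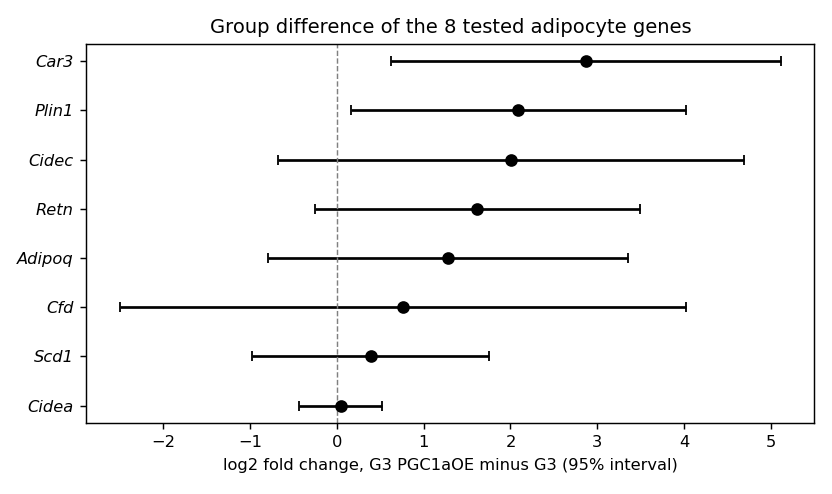
Log2 fold change (G3 PGC1aOE minus G3) of the 8 tested genes on the horizontal axis, with 95% intervals from edgeR; the dashed line marks no difference. Car3 has the highest estimate at 2.87 and Cidea lies at 0.04, with the narrowest interval.

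Single libraries moved the size of these differences. Without G3 2 the log2 fold change was 3.16 for Adipoq, 4.40 for Car3, 4.07 for Cfd, 4.82 for Cidec, 2.73 for Retn and 0.88 for Scd1, and Plin1 no longer had enough counts to be tested. The median of the 7 genes still tested was then 3.16. With G3 PGC1aOE 3 left out, the fit gave 0.67 for Adipoq, 1.97 for Car3, 0.74 for Plin1, 1.17 for Cidec, 0.76 for Retn, 0.38 for Cfd and −0.17 for Scd1, with a median of 0.70. No gene of the 8 passed in edgeR with any single library left out. Leaving out G3 PGC1aOE 1 gave 1.16 for Cfd, leaving out G3 1, G3 3 or G3 4 gave 0.42, 0.36 and 0.36, and for Scd1 leaving out G3 PGC1aOE 2, G3 3 or G3 4 gave 0.69, 0.15 and 0.11.

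**Figure D3:**
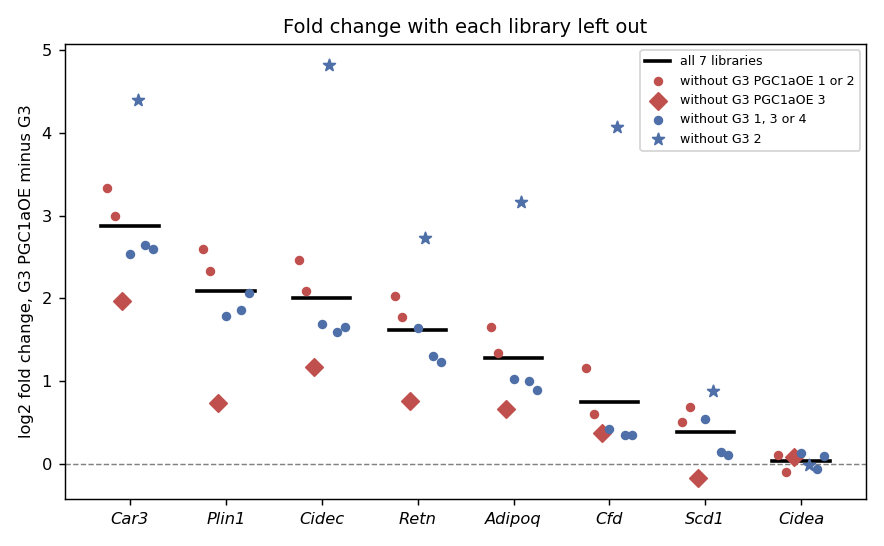
Log2 fold change (G3 PGC1aOE minus G3) of each tested gene with all 7 libraries (bar) and with each library left out in turn (points, red for a library of G3 PGC1aOE and blue for one of G3). Stars, without G3 2, stand highest for 6 genes, reaching 4.82 for Cidec, and diamonds, without G3 PGC1aOE 3, stand lowest for Car3, Plin1, Cidec, Retn, Adipoq and Scd1; Plin1 has no star because it was not tested there.

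The sample descriptions hold a code number, whose meaning is not stated, of 55, 81 and 82 for G3 PGC1aOE 1 to 3 and 40, 67, 50 and 83 for G3 1 to 4. The libraries were split at 80, a cut that the labels do not give. Among libraries below 80 there is 1 labelled G3 PGC1aOE and 3 of G3, and at 80 and above there are 2 labelled G3 PGC1aOE and 1 of G3. Below 80 the difference in mean log2 CPM was 0.20 for Adipoq, −0.19 for Plin1, 1.26 for Car3, 0.47 for Cfd, 0.04 for Retn and 0.76 for Cidec. At 80 and above it was 3.76 for Adipoq, 2.07 for Plin1, 4.34 for Car3, 5.17 for Cfd, 3.59 for Retn and 3.91 for Cidec. Over all libraries it was 1.72 for Adipoq, 1.43 for Plin1, 3.01 for Car3, 2.45 for Cfd, 1.64 for Retn and 2.51 for Cidec. Scd1 differed by 0.0071 below 80 and by 1.82 at 80 and above, and Cidea by −0.046 below 80 and −0.052 at 80 and above. The codes of G3 PGC1aOE 1, G3 1 and G3 3 contain the text G2 and those of the other 4 libraries G3. The 3 libraries highest in Adipoq thus all carry G3, but so does G3 4, which was lowest in Adipoq, at 0.0773 FPKM. The letters before that text are PC in the 3 libraries labelled G3 PGC1aOE, C in G3 1 and G3 2, P in G3 4 and none in G3 3. Their meaning is not stated either, and by them the G3 group is not uniform. With that text as a covariate in edgeR the median log2 fold change of the 8 genes was 1.21 and none passed.

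The 6 genes that shared their 3 highest libraries were compared with other genes. Among all tested genes 5.41% had their 3 highest FPKM values in G3 PGC1aOE 2, G3 PGC1aOE 3 and G3 2. The libraries were named after these 6 genes had been seen, so the share is a description. The spread of the white genes over libraries was wide even for their low level. The SD of log2 CPM over the 7 libraries was 2.36 for Cfd, 2.11 for Car3, 2.06 for Cidec, 1.56 for Adipoq, 1.47 for Retn and 1.39 for Plin1. Cfd lay at percentile 99.7, Car3 at 99.3, Cidec at 99.1, Adipoq at 97.2, Retn at 95.9 and Plin1 at 91.0 among tested genes within 0.5 of their own mean log2 CPM. Scd1, with an SD of 0.97, lay at percentile 98.5, while Cidea, with 0.22, lay at percentile 21.4.

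The proportions among the white genes were compared in the libraries with more than 10 Adipoq reads. In G3 PGC1aOE 1 to 3 and in G3 2, the ratio of Cidec to Adipoq in FPKM was 0.666, 1.12, 1.28 and 0.780, and that of Retn to Adipoq was 0.682, 0.697, 0.926 and 0.532. Cfd stood at 3.72, 5.62, 3.68 and 7.29 times Adipoq in those 4 libraries, and Car3 at 2.18, 3.24, 4.07 and 1.11 times. Plin1 stood at 0.121, 0.243, 0.459 and 0.142 times Adipoq. Scd1 stood at 4.89, 1.40, 2.27 and 2.62 times Adipoq there, and at 15.2 and 5.87 times in G3 1 and G3 3, with 4 Adipoq reads each. Some Scd1 message was thus present where Adipoq was nearly absent.

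Other genes listed as markers of white fat gave a mixed picture. Of 16 such genes 12 were tested and 0 passed, 8 with positive and 4 with negative fold changes and a median of 0.47. Those named next were chosen after their values were seen. Pck1, an enzyme of glycerol synthesis in fat, had 10, 16 and 37 reads in G3 PGC1aOE 1 to 3 and 1, 11, 0 and 1 reads in G3 1 to 4. Rbp4, a retinol carrier secreted by liver and fat, measured 0.636, 3.64 and 4.18 FPKM in G3 PGC1aOE 1 to 3, against 0, 2.22, 0.574 and 0.326 FPKM in G3 1 to 4. Lgals12, a galectin of fat cells, had 0, 5 and 7 reads in G3 PGC1aOE 1 to 3 and 0, 3, 0 and 0 reads in G3 1 to 4. These 3 genes had their highest values in the same 3 libraries as Adipoq, as did Acvr1c, Sncg and Adig, so 6 of the 16 did, and 3 of the 12 tested, beside 5.41% of all tested genes. The other 10 did not. Nnat, which encodes the small membrane protein neuronatin and had the smallest p of the list, measured 8.66, 4.04 and 5.21 FPKM in G3 PGC1aOE 1 to 3, against 3.15, 2.85, 3.99 and 2.92 FPKM in G3 1 to 4 (edgeR, unadjusted p = 0.0097, adjusted p = 0.847). It was highest in G3 PGC1aOE 1 and lowest in G3 2. Trarg1, a regulator of glucose transporter traffic in fat, was lowest in G3 2 and G3 PGC1aOE 3, at 0.227 and 0.302 FPKM. Lrg1, a secreted glycoprotein gene, averaged 35.6 ± 10.7 FPKM (SD, n = 3) in the libraries labelled G3 PGC1aOE and 52.1 ± 27.7 FPKM (SD, n = 4) in G3. The list's summed level, 1097 to 3452 FPKM in the libraries labelled G3 PGC1aOE and 1552 to 4892 FPKM in G3, was set by Lpl, a lipase of heart and fat, and by Fabp4, which capillaries also express. The part of fat around the heart in these values was not tested.

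Many genes of lipid droplets, lipogenesis and lipolysis were abundant in these ventricles. Others were low, with a mean over the libraries of 0.053 FPKM for Adrb3, 0.312 for Elovl6, 0.485 for Pnpla3 and 0.720 for Cideb. None of the 8 other droplet genes, 14 lipogenesis genes or 8 lipolysis genes had its 3 highest values in G3 PGC1aOE 2, G3 PGC1aOE 3 and G3 2, beside 5.41% of all tested genes, a share at which few of them would be counted in any case. None of those tested passed. Fitm1, which helps droplets to form, averaged 109 ± 62.4 FPKM (SD, n = 3) in the libraries labelled G3 PGC1aOE and 83.6 ± 29.7 FPKM (SD, n = 4) in G3. Plin2, the droplet coat protein of most tissues, measured 59.9 ± 8.38 FPKM (SD, n = 3) in the libraries labelled G3 PGC1aOE and 66.0 ± 3.26 FPKM (SD, n = 4) in G3, and its highest library was 1.34-fold above its lowest. Plin3, another widely expressed perilipin, measured 54.3 ± 34.9 FPKM (SD, n = 3) in the libraries labelled G3 PGC1aOE and 79.2 ± 27.1 FPKM (SD, n = 4) in G3. Fitm2 and Bscl2, which encode a relative of the Fitm1 product and the protein seipin, differed by −0.51 and 0.50 on the log2 scale with SEs of 0.28 and 0.27. Of the 7 droplet genes tested, 2 had positive and 5 had negative fold changes, with a median of −0.37.

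Dgat2, which makes triglyceride, averaged 133 ± 16.5 FPKM (SD, n = 3) in the libraries labelled G3 PGC1aOE and 156 ± 42.8 FPKM (SD, n = 4) in G3. Me1, the malic enzyme that supplies reducing power, and Agpat2, an enzyme of phospholipid and triglyceride synthesis, differed by −0.43 and −0.12 on the log2 scale. Srebf1, the master regulator of lipogenesis, measured 17.7 ± 2.77 FPKM (SD, n = 3) in the libraries labelled G3 PGC1aOE and 31.0 ± 14.2 FPKM (SD, n = 4) in G3, where G3 2 had 51.9. Srebf1 differed by −0.68 on the log2 scale (SE 0.29, edgeR, unadjusted p = 0.0423, adjusted p = 0.847). Lpin1, a phosphatidate phosphatase gene, differed by −0.55 (SE 0.31). In this list 5 of 14 fold changes were positive and 9 negative, with a median of −0.12. At an unadjusted p under 0.05 in edgeR 1 of the 14 was lower, beside 1.27% of all tested genes.

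Among lipolysis genes, Pnpla2, the first lipase of triglyceride breakdown, measured 187 ± 56.8 FPKM (SD, n = 3) in the libraries labelled G3 PGC1aOE and 269 ± 31.3 FPKM (SD, n = 4) in G3. Its inhibitor gene G0s2 measured 69.0 ± 41.9 FPKM (SD, n = 3) in the libraries labelled G3 PGC1aOE and 45.3 ± 13.3 FPKM (SD, n = 4) in G3. Mgll, the last lipase of that sequence, differed by 0.20 on the log2 scale with an SE of 0.30. Of 7 tested genes, 4 had positive and 3 negative fold changes, with a median of 0.20.

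The receptors for adiponectin were abundant in all libraries. Adipor1 averaged 59.97 ± 10.7 FPKM (SD, n = 3) in the libraries labelled G3 PGC1aOE and 72.2 ± 6.81 FPKM (SD, n = 4) in G3. Adipor2 averaged 23.4 ± 10.6 FPKM (SD, n = 3) in the libraries labelled G3 PGC1aOE and 30.6 ± 7.84 FPKM (SD, n = 4) in G3. Cdh13, the cadherin that binds adiponectin on cell surfaces, averaged 53.0 ± 16.8 FPKM (SD, n = 3) in the libraries labelled G3 PGC1aOE and 56.3 ± 2.42 FPKM (SD, n = 4) in G3. All 4 receptor genes, Lepr included, had negative fold changes, with a median of −0.19, and 0 passed. Among 6 adipogenic factors tested, 0 passed, 5 had positive fold changes and 1 negative, with a median of 0.18. Pparg, the master regulator of fat cell formation, measured 7.69, 13.7 and 9.81 FPKM in G3 PGC1aOE 1 to 3, against 6.52, 9.83, 7.48 and 9.52 FPKM in G3 1 to 4, and it was the only one of the 6 with its 3 highest values in the libraries that were highest for Adipoq. Cebpb and Klf15, a pair of transcription factor genes of fat formation, differed by 0.10 and −0.42 on the log2 scale.

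Of 7 genes listed both for brown fat and for heart, 4 had positive and 3 negative fold changes, with a median of 0.11, and 0 passed. Cox7a1 averaged 3239 ± 2165 FPKM (SD, n = 3) in the libraries labelled G3 PGC1aOE and 1771 ± 624 FPKM (SD, n = 4) in G3. Cox8b, like Cox7a1 a muscle isoform of a cytochrome oxidase subunit, and Fabp3, the heart fatty acid binding protein, differed by 0.83 and 0.11 on the log2 scale. Ppara, a receptor that switches on fatty acid oxidation, differed by −1.17 with an SE of 0.52 (edgeR, unadjusted p = 0.0491, adjusted p = 0.847). At an unadjusted p under 0.05 in edgeR 1 of the 7 was lower, beside 1.27% of all tested genes.

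Genes of other tissues at the heart surface were compared by library. By the root mean square difference of centred log2 CPM over the 7 libraries, Retn was the nearest of 12673 other tested genes to Adipoq, at 0.46, and Cidec ranked 16, Cfd 28, Car3 34, Plin1 39, Scd1 57 and Cidea 6745. These ranks are a description over 7 libraries, with no test.

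Outside the 10, and at a mean of at least 0 log2 CPM, the nearest genes were Chrdl1, Wnt9b, Pdgfrl, Npnt, Gm2564, Col4a6, Stk32b, Ccn3, Ccl19 and Mgp, at 0.51 to 0.75. None of them belongs to any of the gene lists used. Mgp, matrix Gla protein, an inhibitor of calcification made by vessel walls and cartilage, measured 298, 714 and 686 FPKM in G3 PGC1aOE 1 to 3, against 390, 650, 170 and 160 FPKM in G3 1 to 4. Wnt9b, a secreted signalling protein, measured 0.249, 0.416 and 0.951 FPKM in G3 PGC1aOE 1 to 3, against 0.307, 0.921, 0.0789 and 0.0627 FPKM in G3 1 to 4. Chrdl1, an inhibitor of bone morphogenetic proteins, was the nearest, with 0.217, 0.470 and 0.941 FPKM in G3 PGC1aOE 1 to 3, against 0.221, 0.582, 0.0748 and 0.0594 FPKM in G3 1 to 4. Adjusted p was 0.847 or above for all 10 in edgeR.

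**Figure D4:**
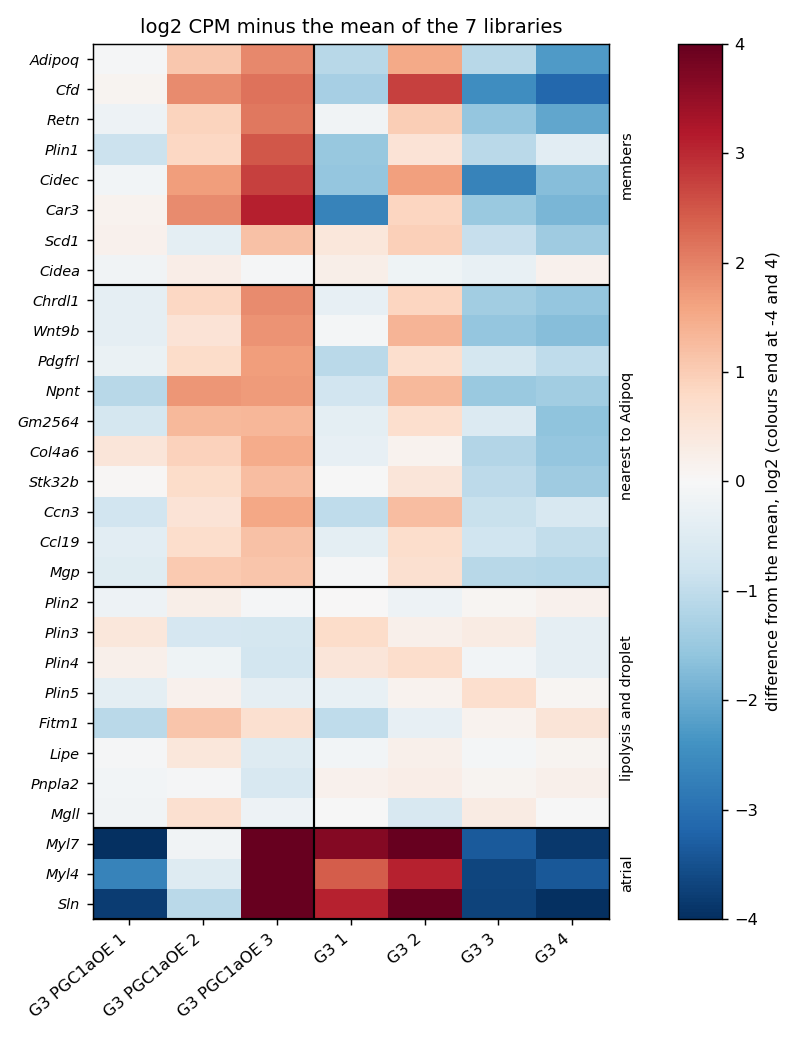
Log2 CPM of each gene minus its mean over the 7 libraries (colour), for the 8 tested fat genes, the 10 genes nearest to Adipoq, 8 genes of droplets and lipolysis, and 3 atrial genes; columns are libraries, with G3 PGC1aOE left of the line. The 6 white genes and most of the 10 nearest genes are red in G3 PGC1aOE 2, G3 PGC1aOE 3 and G3 2, Cidea and Plin2 are nearly white throughout, and the atrial genes are red in G3 PGC1aOE 3, G3 1 and G3 2.

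Each of the 5 atrial genes was high in G3 PGC1aOE 3, in G3 2 or in both, the libraries with the highest Adipoq values. Myl7, the atrial myosin light chain, measured 0, 12.3 and 602 FPKM in G3 PGC1aOE 1 to 3, against 207, 269, 1.21 and 0.720 FPKM in G3 1 to 4. G3 PGC1aOE 3 and G3 2 were thus high in Myl7 and in Adipoq, whereas G3 1 was high in Myl7 with 4 Adipoq reads and G3 PGC1aOE 2 was low in Myl7 with 30. Myl4 and Sln, another atrial light chain and a calcium pump regulator, were likewise highest in G3 PGC1aOE 3, G3 2 and G3 1. Nppa, the natriuretic peptide gene, which stressed ventricle also expresses, had another order, with 5044, 477 and 1218 FPKM in G3 PGC1aOE 1 to 3, against 3010, 3225, 80.9 and 653 FPKM in G3 1 to 4. Bmp10, a growth factor gene of the atria, stood at 7.95 FPKM in G3 PGC1aOE 3 and at 0.135 FPKM or less in the other libraries. The 5 summed to 501 to 5046 FPKM in the libraries labelled G3 PGC1aOE and 83.3 to 3745 FPKM in G3, a range set mainly by Nppa, with the top sum in G3 PGC1aOE 1, where Myl7 was 0. None of the 5 was at 0 in all libraries. All 4 tested had positive fold changes, beside 50.9% of all tested genes, with a median of 1.29 on the log2 scale, and 0 passed. The part of the atrial genes in the fat gene values was not tested.

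**Figure D5:**
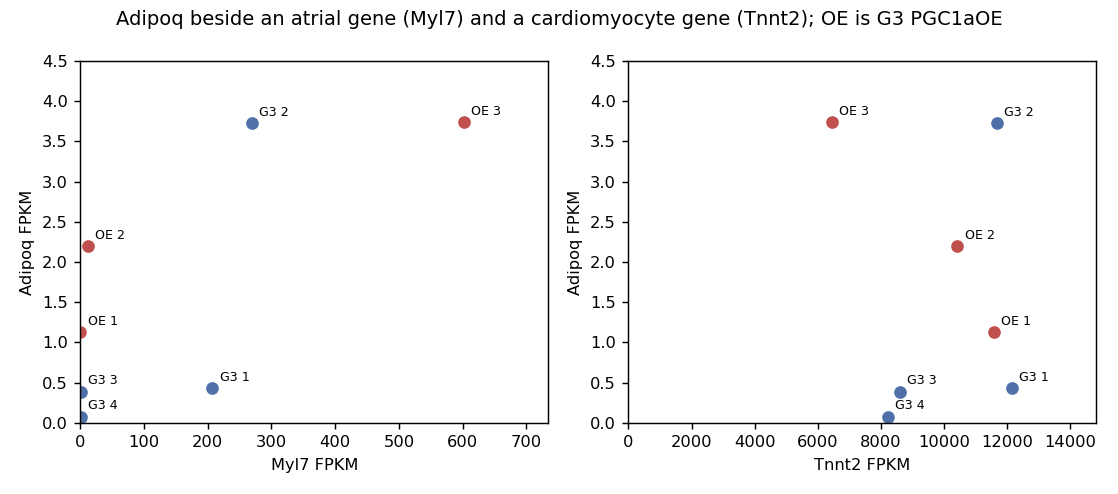
Adipoq FPKM (vertical) beside Myl7 FPKM, an atrial gene (left), and Tnnt2 FPKM, a gene of all cardiomyocytes (right), 1 point per library, OE standing for G3 PGC1aOE, red for G3 PGC1aOE and blue for G3. G3 PGC1aOE 3 and G3 2 are highest in Adipoq, at 3.74 and 3.72, and also in Myl7, at 602 and 269, while G3 1 has 207 for Myl7 with 0.432 for Adipoq.

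Markers of other cells at the surface were given in the same way. Of 8 mesothelial genes, 4 were tested, all with positive fold changes, beside 50.9% of all tested genes, and a median of 1.09 on the log2 scale. At an unadjusted p under 0.05 in edgeR 1 of the 4 was higher, beside 3.05% of all tested genes, and none passed. The list summed to 6.73 to 13.9 FPKM in the libraries labelled G3 PGC1aOE and 4.78 to 9.85 FPKM in G3. Upk3b, a gene of the epicardial layer, had 1, 44 and 140 reads in G3 PGC1aOE 1 to 3 and 10, 8, 5 and 40 reads in G3 1 to 4, so it was high in G3 PGC1aOE 3 and low in G3 2. Of 9 fibroblast genes, 8 had positive fold changes, beside 50.9% of all tested genes, with a median of 0.87 on the log2 scale, and 0 passed. At an unadjusted p under 0.05, 5 of the 9 were higher, beside 3.05% of all tested genes, and the smallest p was that of Col3a1, a collagen gene, with 82.7, 81.97 and 68.8 FPKM in G3 PGC1aOE 1 to 3, against 37.7, 25.96, 37.6 and 36.2 FPKM in G3 1 to 4 (edgeR, unadjusted p = 0.00025, adjusted p = 0.847). These groups did not overlap. The fibroblast sums were 1191 to 1622 FPKM in the libraries labelled G3 PGC1aOE and 787 to 1523 FPKM in G3. The fibroblast genes Dpt, Tcf21 and Gsn had their 3 highest values in the same libraries as Adipoq, as did Emcn and Eng of the 7 endothelial genes, which is 3 of 9 and 2 of 7 beside 5.41% of all tested genes. Endothelial markers had 6 positive fold changes of 7, beside 50.9% of all tested genes, with a median of 0.49. Of the 7, 1 was higher at an unadjusted p under 0.05 in edgeR, beside 3.05% of all tested genes, and 0 passed. The endothelial list summed to 303 to 601 FPKM in the libraries labelled G3 PGC1aOE and 266 to 405 FPKM in G3. Macrophage markers had 6 positive fold changes of 7, beside 50.9% of all tested genes, with a median of 0.28, and 0 passed. The macrophage list summed to 308 to 336 FPKM in the libraries labelled G3 PGC1aOE and 145 to 409 FPKM in G3. The part of these cells in the fat gene values was not tested.

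Skeletal muscle, which also holds Car3, was represented by 11 genes. Apart from the actin gene Acta1 they are genes of fast fibres, so slow skeletal muscle was not examined. Tnnc2, the fast troponin C, was at 0 in every library, and Myh1, Myh2 and Myh4, the fast myosins, were below 0.1 FPKM in each. Of the 4 tested none passed, and the list summed to 24.2 to 86.2 FPKM in the libraries labelled G3 PGC1aOE and 21.95 to 158 FPKM in G3, mostly from Acta1, an actin that heart muscle also expresses. Pvalb, a calcium buffer of fast fibres, measured 0.627, 3.48 and 2.45 FPKM in G3 PGC1aOE 1 to 3, against 1.54, 3.45, 0.0924 and 0.0734 FPKM in G3 1 to 4. Pvalb and Tnni2, a fast troponin gene, had their 3 highest values in the libraries that were highest for Adipoq and Car3, 2 of the 4 tested beside 5.41% of all tested genes. The other two did not: Mybpc2, a fast myosin binding protein gene, measured 16.7, 3.85 and 1.29 FPKM in G3 PGC1aOE 1 to 3, against 22.9, 5.14, 1.48 and 1.25 FPKM in G3 1 to 4, and Acta1 was lowest in G3 PGC1aOE 3, at 15.6 FPKM.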

How the data were processed

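Libraries were made from total RNA with an Illumina TruSeq kit per the labels' protocols; CASAVA, Bowtie 0.12.2 and mm9 are named per the submitters' processing notes, and the counting program, its annotation and its use of strand are not stated in those sources. The authors deposited raw read counts per Ensembl gene and FPKM, which equalled counts per total and per gene length. Reads that overlapping or paralogous genes share cannot be told apart; in the GENCODE annotation no exon of the 10 genes overlaps another gene. A name was matched to 21748 of 22027 identifiers.

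Counts were tested with edgeR 4.0.16 (R 4.3.3): filterByExpr with a minimum count of 10 kept 12674 genes, with TMM scaling and a quasi-likelihood test, 2-sided, Benjamini-Hochberg over all tested genes at 0.05, and group as the only term. CPM use TMM-scaled totals, and log2 CPM a prior count of 2. Ratios used FPKM plus 0.05 and exact permutation; the ratio of Ucp1 to Adipoq was planned too but, with Ucp1 at 0 throughout, is not given. Motifs were searched in RefSeq sequences of GRCm38.p6. Alternatives used DESeq2 1.42.0 and limma 3.58.1, other scalings and filters, log2 FPKM with pseudocounts of 1 and 0.1, covariates, a replicate block, and leaving out single libraries. Scripts were tested on simulated counts, where edgeR recovered 23% of 2-fold and 90% of 4-fold changes. The simulated spread followed the trend over all genes, and the white genes varied more than most genes of their level. A gene that did not pass is therefore not shown to be unchanged. All 10 genes are named, with the 10 genes nearest to Adipoq and, from the droplet, lipogenesis, lipolysis, receptor, factor, brown and beige lists, the 3 of highest mean FPKM and the 2 of smallest p; other names were chosen after their values were seen. The members and lists were chosen with earlier results of these data known. Cebpd and Gyk of the lists were not analysed here.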

Additional observations from a re-analysis of the deposited data

Results flagged for a closer look

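In G3, a group of 4 libraries, G3 2 stood apart from the other 3 for 4 of the 8 genes with reads in that group. The gap between G3 2 and the next library, as a share of the group's whole range in CPM, was 0.956 for Cfd, 0.938 for Cidec, 0.902 for Adipoq and 0.880 for Car3, above Dixon's 95% critical value for 4 samples. Chance flags about 1 group in 20, and these 4 genes were measured in the same library, so they are not 4 independent flags. The library was kept, and the fold changes without it are given above. Groups of 3 were not examined in this way.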

How the results depend on the processing

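Over the alternative fits to all genes, 143 fold changes of the 8 tested genes kept their sign, 7 changed it and none passed the threshold. The 7 were Scd1 at −0.17 without G3 PGC1aOE 3, and Cidea at −0.064 and −0.066 with limma on log2 FPKM plus 1 and plus 0.1 (adding 0.1 moves the median of all genes to −0.11), at −0.054 with the code number as a covariate and at −0.090, −0.0072 and −0.060 without G3 PGC1aOE 2, G3 2 and G3 3. With single libraries left out, Scd1 reached up to 0.88 and Cidea up to 0.13. The number of genes called was 0 under all settings except DESeq2, with 3, and the replicate block, with 6; none of the 10 fat genes was among them. Deviations of same-numbered libraries had correlations of 0.456, 0.123 and −0.0863. Numbers 1 and 2 were best matched with their own number, and number 3 was not. Each correlation rests on 1 library per group, so whether the numbers pair the samples is not settled. The main fit used no pairing. The median fold change of the tested fat genes was 2.497 with limma voom and 0.70 to 3.16 with single libraries left out. Their median difference in log2 CPM was 0.12 for codes under 80 and 3.67 for the others. Under 80 G3 PGC1aOE 1 was the only library of its group, and among the others G3 4 was the only library of G3. Plin1 was negative under 80 (−0.19), and Cidea in both (−0.046 and −0.052). The causes were not tested. The difference in the log2 ratio of Cidea to Cidec ran from −4.18 to −2.30 with single libraries left out and kept its sign; with 6 libraries that test cannot pass 0.05. Of the 10 genes nearest to Adipoq, 2 remained at a mean of at least 2 log2 CPM and 3 by Pearson r. Depth limits the low genes, with 1 to 12 Adipoq reads in 4 of 7 libraries. Counts of called genes within code numbers were not run.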
